A study of Canis lupus familiaris with 18 samples.

Results

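The genes FN1, FBN1, FBLN1, FBLN2, FBLN5, EFEMP1, EFEMP2, ELN and ABI3BP encode fibronectin, a fibrillin, 5 fibulins, elastin and a matrix protein that carries fibronectin-like repeats. They were taken by name, as every probe set of the array whose single gene symbol in the platform annotation is one of these 9. The 9 genes, of 15115 named on the array, are read by 28 probe sets of 42924, and 22 of the 28 lay above the signal filter (a mean of 5.31 log2 units over all arrays). Every gene kept at least 1 probe set. For each gene, the probe set of highest mean signal stands for the gene unless another is named, and signals are compared between arrays only within a probe set.

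Fibronectin is secreted as a dimer that cells stretch into fibrils through integrins, and this early scaffold guides the deposition of collagen and fibrillin. Fibrillin polymers form microfibrils, on which elastin is laid down and cross-linked by lysyl oxidases into elastic fibres, with fibulins acting as adaptors between elastin, microfibrils and basement membrane. In the heart these proteins come mainly from fibroblasts and vascular cells, and they are known to accumulate where the myocardium becomes fibrotic.

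The arrays measured total RNA from a small piece of right atrium (RA) or right ventricle (RV) of adult dogs. Heart failure (HF) had been induced by continuous rapid ventricular pacing from an implanted pacemaker. Each chamber has 3 arrays of early HF (2 weeks of pacing in the design text, 2 to 3 weeks in the protocol), 3 of late HF (5 weeks, or 5 to 6 in the protocol) and 3 of control dogs (0 weeks), so that 18 arrays form 6 groups. The dogs were mongrel or beagle, and neither breed nor animal is given for any array. The replicates are called biological without saying which arrays share a dog, so the p-values speak only of the spread from array to array, which may in part be technical. No allele, drug or sham operation is given for any group. The comparisons ask how the genes differ with the stage of failure in each chamber, and between the chambers.

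Values are log2 signals, and a difference of 1 is a doubling. Array medians lay between 5.65 and 5.75, and the number of arrays limits the precision. One array went against its label in most chamber markers. The array labelled RA late 3 had a signal of 14.17 for MYL2, the ventricular myosin light chain, against 10.59 and 10.99 on the other RA late arrays and 14.13 to 14.17 in RV controls. It also had 9.17 for DKK3, a gene of atrial muscle, where the other RA arrays had 12.05 or more and the RV arrays 8.53 or less. For GJA5, the gene of an atrial connexin, its 8.74 lay within the range of the other RA arrays (8.46 to 9.21) and above all RV arrays (at most 7.52). It is kept under its label, and results are given with all 18 arrays and again without it. An RV array, RV late 1, had the lowest MYL2 signal of its chamber, 12.76.

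**Figure D1:**
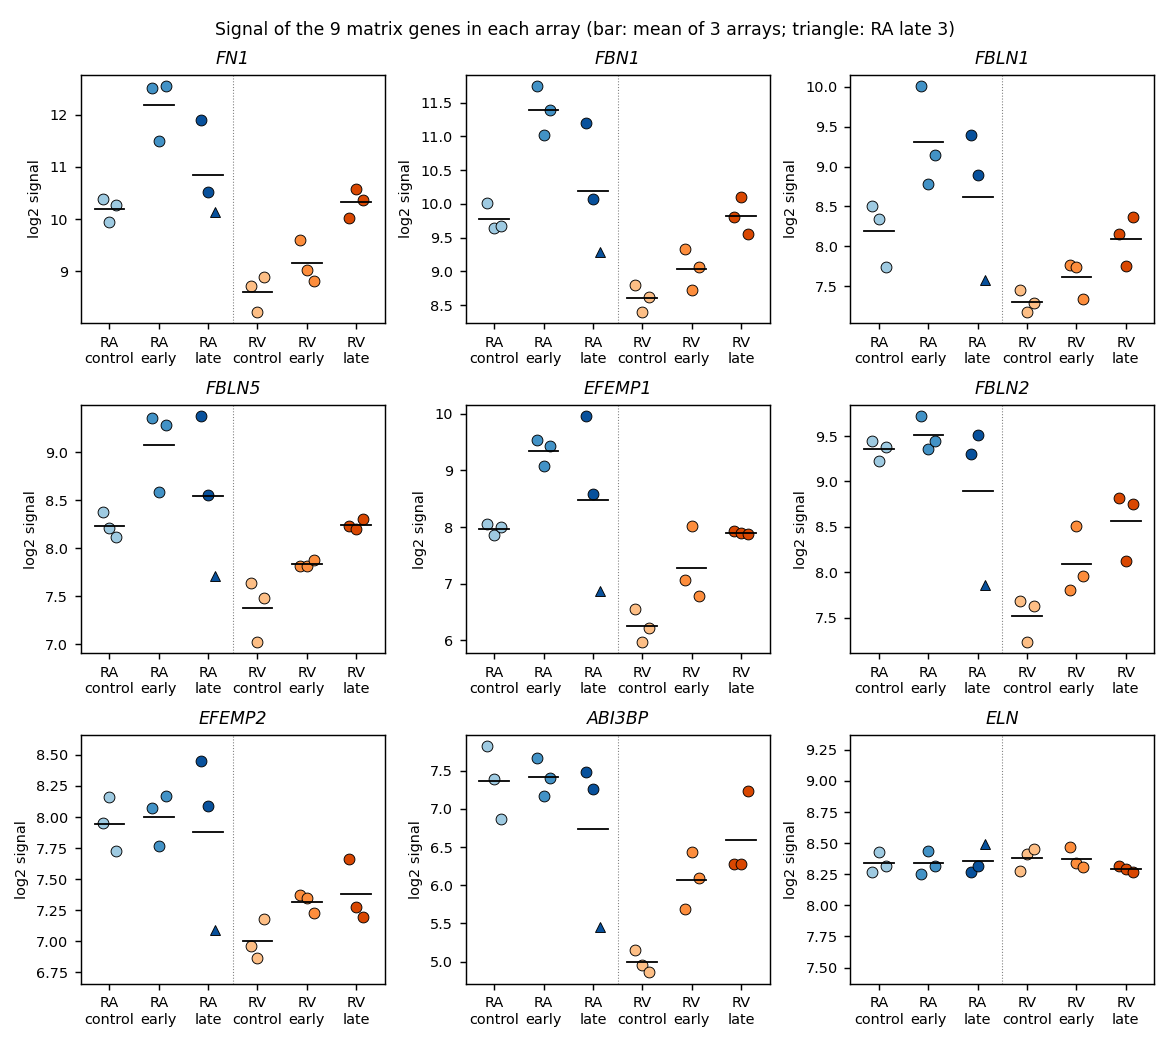
Log2 signal (vertical axis) of each of the 9 genes on each array, with RA groups in blue at the left and RV groups in orange at the right, each ordered control, early HF and late HF. Points are arrays, bars are means of 3 arrays, and the triangle is RA late 3. FN1, FBN1, FBLN1, FBLN5 and EFEMP1 are high in RA early HF, FBLN2, EFEMP2 and ABI3BP are level between RA control and RA early HF, and ELN stays between 8.25 and 8.49 on all 18 arrays.

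FN1, the gene of fibronectin, had the widest range of the 9. In the RA its signals were 10.39, 9.94 and 10.27 in control arrays, 12.50, 11.49 and 12.55 in early HF and 11.90, 10.51 and 10.14 in late HF. In the RV they were 8.71, 8.22 and 8.89 in controls, 9.60, 9.03 and 8.82 in early HF and 10.01, 10.58 and 10.37 in late HF. The RA early arrays all lay above every RA control array, and the RV late arrays all lay above every RV control and RV early array. By mean level, RA early HF (12.18 ± 0.60, SD, n = 3) came first, then RA late HF (10.85 ± 0.93), RV late HF (10.32 ± 0.29), RA control (10.20 ± 0.23), RV early HF (9.15 ± 0.40) and RV control (8.61 ± 0.35). Of these neighbours, only RA control and RV early HF did not share a range.

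FBN1, the gene of the main fibrillin of adult microfibrils, followed a like course. Its RA signals were 10.01, 9.65 and 9.68 in controls, 11.75, 11.02 and 11.39 in early HF and 11.20, 10.07 and 9.29 in late HF. Its RV signals were 8.80, 8.40 and 8.62 in controls, 9.34, 8.72 and 9.07 in early HF and 9.80, 10.11 and 9.56 in late HF. RA early HF was again above RA control on every array, and the RV late arrays lay above the RV control and RV early arrays. The order of means was RA early HF (11.39), RA late HF (10.19), RV late HF (9.82), RA control (9.78), RV early HF (9.04) and RV control (8.61), and again only RA control and RV early HF, among neighbours, did not share a range.

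Of the fibulins that bind fibronectin or elastin, FBLN1, FBLN5 and EFEMP1 resembled FN1 in the RA. FBLN1 is a ligand of fibronectin found in basement membranes and elastic fibres. It had RA signals of 8.50, 8.34 and 7.74 in controls, 10.01, 8.78 and 9.15 in early HF and 9.39, 8.90 and 7.58 in late HF, and RV signals of 7.46, 7.18 and 7.29 in controls, 7.77, 7.74 and 7.34 in early HF and 8.16, 7.76 and 8.37 in late HF. The early and control arrays did not overlap in the RA, and the late and control arrays did not overlap in the RV.

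FBLN5 organises elastin on microfibrils in mice. Its RA signals were 8.38, 8.21 and 8.12 in controls, 9.36, 8.59 and 9.29 in early HF and 9.38, 8.56 and 7.71 in late HF, and its RV signals were 7.64, 7.02 and 7.48 in controls, 7.81, 7.81 and 7.88 in early HF and 8.23, 8.20 and 8.31 in late HF. In the RV the 3 groups did not overlap by this probe set and stood in the order of the stages. Early HF lay above control without overlap there for 7.35% of all probe sets, and late above early HF for 6.01%. By the other tested FBLN5 probe set, RV control (4.69 to 5.31) overlapped early HF (5.23 to 5.64). Late HF (5.41 to 5.85) overlapped early HF and lay above control. EFEMP1 encodes a fibulin of elastic connective tissue. It had RA signals of 8.05, 7.86 and 8.0 in controls, 9.53, 9.07 and 9.44 in early HF and 9.96, 8.59 and 6.87 in late HF, and RV signals of 6.56, 5.97 and 6.22 in controls, 7.06, 8.02 and 6.78 in early HF and 7.93, 7.90 and 7.88 in late HF. All HF arrays lay above all control arrays of their chamber except RA late 3, which lay below the RA controls.

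FBLN2, EFEMP2 and ABI3BP differed between the chambers but not between RA control and RA early HF. FBLN2, a fibulin of vessel walls and basement membranes, had RA signals of 9.45, 9.23 and 9.38 in controls, 9.72, 9.36 and 9.44 in early HF and 9.30, 9.51 and 7.86 in late HF. Its RV signals were 7.68, 7.23 and 7.63 in controls, 7.80, 8.51 and 7.96 in early HF and 8.82, 8.12 and 8.75 in late HF. Leaving aside RA late 3, all RA arrays lay above all RV arrays, and both RV failure groups lay above RV controls.

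EFEMP2 encodes the fibulin that brings lysyl oxidase to elastin in mice. It had RA signals of 7.95, 8.16 and 7.73 in controls, 8.07, 7.77 and 8.17 in early HF and 8.45, 8.09 and 7.09 in late HF, and RV signals of 6.96, 6.87 and 7.18 in controls, 7.37, 7.35 and 7.23 in early HF and 7.66, 7.28 and 7.20 in late HF. The RV early and late arrays overlapped each other and lay just above the RV controls. ABI3BP encodes a secreted matrix protein. Its RA signals were 7.82, 7.39 and 6.87 in controls, 7.67, 7.17 and 7.41 in early HF and 7.48, 7.26 and 5.46 in late HF, and its RV signals were 5.15, 4.96 and 4.86 in controls, 5.69, 6.43 and 6.10 in early HF and 6.28, 6.28 and 7.23 in late HF. Its RV control arrays all lay below 5.31, the limit of the signal filter, so differences of ABI3BP against RV controls rest on low signals.

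ELN, the gene of elastin itself, was level by its brighter probe set. Its signal lay between 8.25 and 8.49 on all 18 arrays, and group means ran from 8.29 to 8.38. Its differences lay between -0.09 and 0.07 in the comparisons of groups below (SE 0.10), with adjusted p from 0.798 to 0.994. A second ELN probe set lay between 7.09 and 7.65, and its largest difference among RA early HF, RV late HF and the chamber comparisons of controls and early HF was 7.15 in RA early HF against 7.52 in RV early HF (-0.37, SE 0.12, adjusted p 0.0832 by limma), without overlap of the arrays. This difference passed without RA late 3 (adjusted p 0.0489), where 3.92% of probe sets were called lower.

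In the RA, 2 of the 9 genes rose in early HF against control (limma, adjusted p by Benjamini-Hochberg over 25752 probe sets), where 0.307% of all probe sets were called higher. FN1 rose by 1.98 (SE 0.37, 3.94-fold, adjusted p 0.0271), and FBN1 rose by 1.61 (SE 0.33, 3.05-fold, adjusted p 0.0366). EFEMP1 differed by 1.38 (SE 0.50, adjusted p 0.201), FBLN1 by 1.12 (SE 0.37, adjusted p 0.159) and FBLN5 by 0.84 (SE 0.30, adjusted p 0.188), none past the threshold. The arrays of the 2 groups did not overlap for these 5 genes, as for 8.7% of probe sets in the same direction. FBLN2 differed by 0.15, EFEMP2 and ABI3BP by 0.06 each, and ELN by under 0.01. The median over the 9 genes was 0.84, against -0.02 over all probe sets. In a bulk tissue signal, a change in the number of cells that express a gene and a change in RNA per cell cannot be told apart.

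The calls in the RA depended on single arrays. Without RA late 3, which is in neither group but enters the shared estimate of the spread, 5 genes passed where 1.63% of probe sets were called higher: FBN1 (adjusted p 0.00416), FN1 (0.00544), EFEMP1 (0.0217), FBLN1 (0.032) and FBLN5 (0.0409). Without RA late 1, 4 passed, with EFEMP1 and FBLN5 added, where 1.95% were called higher. Without any 1 of RA control 1, 2 or 3, RA early 1 or RA early 3, the count was 0, although over all 18 such fits the difference stayed between 1.79 and 2.33 for FN1 and between 1.43 and 1.79 for FBN1. FN1 passed in 13 of the 18 and FBN1 in 8.

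RA late HF against RA control gave 0 calls among the 9 with all arrays, none of them at an unadjusted p under 0.05 either, where limma called 0.0311% of probe sets higher. The RA late group had the largest SD of the 6 groups for all 9 genes. For 8 of them, all but ELN, RA late 1 was mostly as high as the early arrays and RA late 3 lay within the span of the RV arrays. For FN1, RA late 3 also lay within the range of the RA controls. FN1 differed by 0.65 (SE 0.37, adjusted p 0.517) and FBLN2 by -0.46 (SE 0.32, adjusted p 0.602), and arrays overlapped for every gene, while 6.16% of probe sets were higher without overlap. Without RA late 3, with 2 late arrays, 0 genes passed and 5 had an unadjusted p under 0.05, while 1.21% of probe sets were called higher. The 5 were EFEMP1 (1.30, adjusted p 0.0606), FN1 (1.00), FBLN1 (0.95), FBN1 (0.85) and FBLN5 (0.73). Their arrays then did not overlap, as for 15.8% of probe sets.

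RV early HF against RV control gave 0 calls with all arrays (limma, 1 gene at an unadjusted p under 0.05), where 0.0932% of probe sets were called higher, and 0 without RA late 3 (4 unadjusted), where 0.373% were. Arrays of 5 genes lay above the controls without overlap, as for 7.35% of probe sets. They were ABI3BP (1.08, SE 0.40, adjusted p 0.415), EFEMP1 (1.04, SE 0.50, adjusted p 0.599), FBLN2 (0.58), FBLN5 (0.45) and EFEMP2 (0.31). FN1 differed by 0.54 (SE 0.37, adjusted p 0.786) and FBN1 by 0.44, with overlapping arrays.

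In RV late HF, all genes but ELN lay above RV control on every array. This held for 8 of the 9 genes and for 9.04% of probe sets. None passed the adjusted threshold with all arrays (0 calls by limma, with 7 genes at an unadjusted p under 0.05), and 0.0% of all probe sets did. The differences were 1.71 for FN1 (SE 0.37, 3.28-fold, adjusted p 0.386) and 1.65 for EFEMP1 (SE 0.50, adjusted p 0.428). They were 1.61 for ABI3BP (SE 0.40, adjusted p 0.402) and 1.22 for FBN1 (SE 0.33, adjusted p 0.418). FBLN2 differed by 1.05, FBLN5 by 0.87, FBLN1 by 0.79 and EFEMP2 by 0.38. By size of difference FN1 was 10th, EFEMP1 14th and FBN1 41st of 10988 genes, each by its highest-signal probe set. The median over the 9 was 1.05, against -0.01 over all probe sets.

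The test in RV late HF turned on the estimate of the spread, which RA late 3 enters. The SE of EFEMP1 was 0.50 with that array and 0.30 without it. Without RA late 3, ABI3BP (adjusted p 0.0264) and EFEMP1 (adjusted p 0.0437) passed where 0.0854% of probe sets were called higher, and FN1 and FBLN2 each stood at 0.0542. With only the RV late and RV control arrays in the fit, 7 of the 9 passed, from EFEMP1 (adjusted p 0.00403) to FBLN1 (adjusted p 0.0494), and EFEMP2 and ELN did not. In that fit 0.804% of probe sets were called higher.

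**Figure D2:**
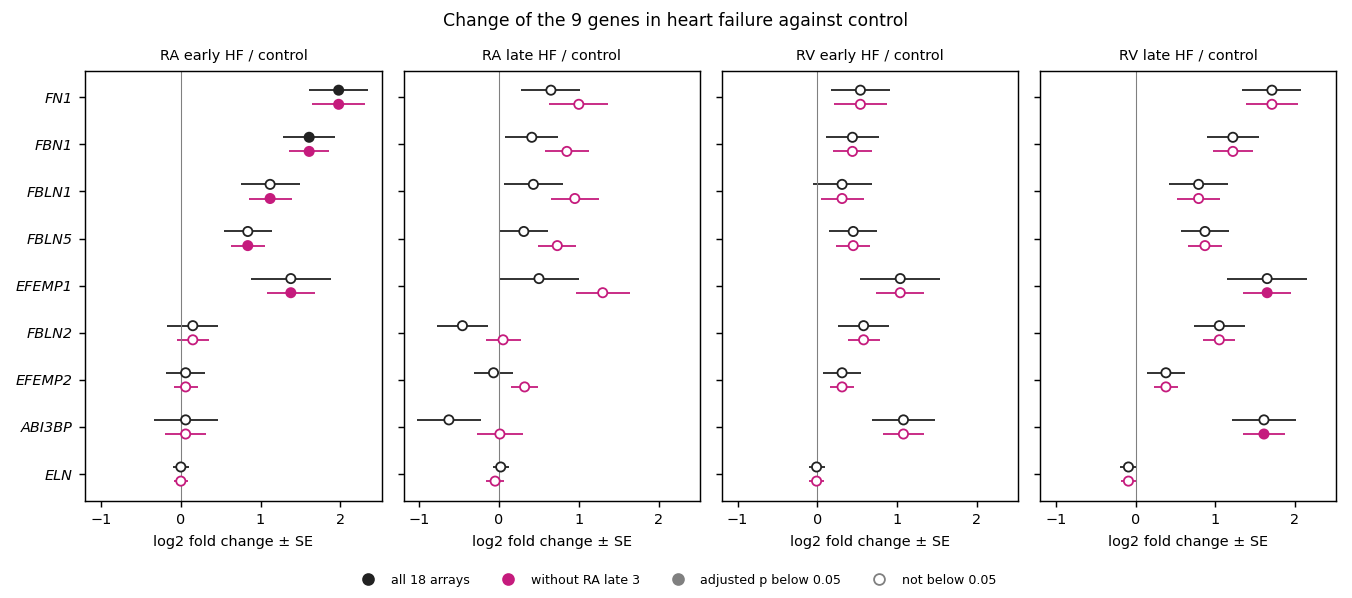
Log2 fold change (horizontal axis) with the standard error of the limma fit for each of the 9 genes in the 4 comparisons of HF with control, with all 18 arrays in black and without RA late 3 in magenta. Filled points have an adjusted p below 0.05. FN1 and FBN1 are filled in RA early HF with all arrays, 5 genes are without RA late 3, and in RV late HF ABI3BP and EFEMP1 are filled only without that array.

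Between the stages of failure, 0 genes passed in either chamber by limma, with 2 in each at an unadjusted p under 0.05, and 0.0% of probe sets were called lower in the RA or higher in the RV. FN1 differed by -1.33 (SE 0.37, adjusted p 0.404) and FBN1 by -1.20 (SE 0.33, adjusted p 0.4) in RA late against RA early HF. Without RA late 1, these were -1.85 (adjusted p 0.0199) and -1.71 (adjusted p 0.0178), past the threshold, where 0.217% of probe sets were called lower. When RA late 3 was left out they were -0.98 (adjusted p 0.546) and -0.75 (adjusted p 0.544), and again 0.0% of probe sets were called in either chamber. In the RV the late arrays lay above the early ones without overlap for FN1 (1.17, adjusted p 0.702), FBN1 (0.78, adjusted p 0.885) and FBLN5 (0.41, adjusted p 0.951), as for 6.01% of probe sets.

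The chambers already differed in control dogs. In RA against RV controls, 4 of the 9 genes were higher (limma), where 1.69% of probe sets were called higher, and arrays did not overlap for 8, as for 13.0% of probe sets. ABI3BP was higher by 2.37 (SE 0.40, 5.17-fold, adjusted p 0.00424) and FBLN2 by 1.84 (SE 0.32, 3.58-fold, adjusted p 0.00503). FN1 was higher by 1.59 (SE 0.37, 3.02-fold, adjusted p 0.0294) and EFEMP2 by 0.94 (SE 0.24, 1.92-fold, adjusted p 0.0482). EFEMP1 differed by 1.72 (adjusted p 0.0763), FBN1 by 1.17 (adjusted p 0.0728), FBLN1 by 0.88 (adjusted p 0.238) and FBLN5 by 0.86 (adjusted p 0.137). Leaving RA late 3 out, 7 genes passed where 3.26% of probe sets were called higher, and FBLN1 (adjusted p 0.0656) and ELN did not. Without RA late 1, 7 passed as well, where 2.6% were. With stage and replicate number as a block, which matches RA and RV arrays of the same number at every stage, 5 genes passed. In that fit 2.1% of probe sets were called higher, and the gene gained was FBN1 (adjusted p 0.022). ABI3BP and FBLN2 passed with each of the 18 arrays left out, and they were the 2 calls that remained without any 1 of the control arrays. FN1 passed in 12 of the 18 fits, and EFEMP2 in only 2, those without RA late 1 and without RA late 3 (adjusted p up to 0.188 in the others).

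In early HF the RA exceeded the RV for 6 of the 9 genes, where 3.01% of probe sets were called higher, and arrays did not overlap for 8, as for 10.7%. FN1 was higher by 3.03 (SE 0.37, 8.17-fold, adjusted p 0.000735), FBN1 by 2.34 (SE 0.33, 5.07-fold, adjusted p 0.00138) and EFEMP1 by 2.06 (SE 0.50, 4.17-fold, adjusted p 0.0226). FBLN1 was higher by 1.70 (adjusted p 0.0148), FBLN2 by 1.42 (adjusted p 0.018) and FBLN5 by 1.25 (adjusted p 0.021). ABI3BP differed by 1.34 (adjusted p 0.0638) and EFEMP2 by 0.69 (adjusted p 0.12), and both passed without RA late 3, which made 8 genes, with 5.07% of probe sets called higher, and without RA late 1, with 4.85%. FN1 and FBN1 passed with each of the 18 arrays left out, and they alone did without RA early 1 or without RV early 3.

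In late HF the chambers were not separated with all arrays. RA against RV gave 0 calls by limma, 0 of them at an unadjusted p under 0.05, with arrays overlapping for all 9 genes, where 0.0155% of probe sets were called higher and 6.62% were higher without overlap. When RA late 3 was left out, EFEMP1 was higher in the RA by 1.37 (adjusted p 0.0394) and EFEMP2 by 0.89 (adjusted p 0.00963), where 2.19% of probe sets were called higher. Arrays of 6 genes then did not overlap, as for 17.8% of probe sets, and those of FN1 and FBN1 did.

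**Figure D3:**
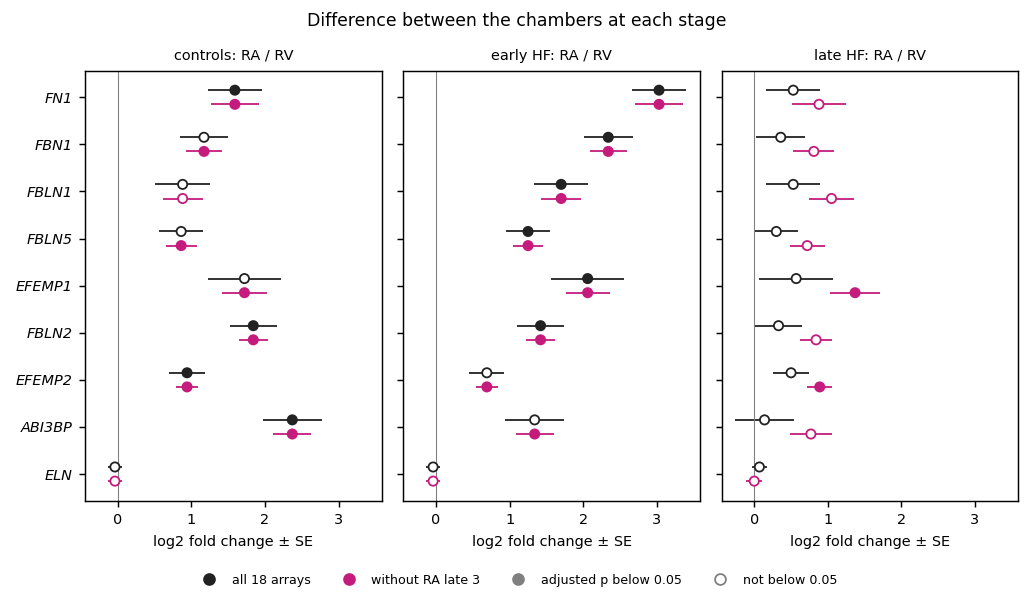
Log2 fold change of RA against RV (horizontal axis) with the standard error of the limma fit for each gene in controls, early HF and late HF, with all 18 arrays in black and without RA late 3 in magenta. Filled points have an adjusted p below 0.05. FN1 stands at 1.59, 3.03 and 0.53 in the 3 panels with all arrays, ABI3BP at 2.37, 1.34 and 0.14, and ELN at or near 0 throughout.

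Whether failure changed a gene differently in the chambers was tested as a difference of differences. No gene of the 9 passed for early HF (limma, 2 at an unadjusted p under 0.05, and 4 without RA late 3) or for late HF (2 unadjusted in either fit). With all arrays and without RA late 3 alike, 0.00388% of probe sets were called in either direction for early HF and 0.00777% for late HF. In early HF the RA change exceeded the RV change by 1.44 for FN1 (SE 0.53, adjusted p 0.753) and by 1.17 for FBN1 (SE 0.47, adjusted p 0.831). For ABI3BP the difference was -1.03 (SE 0.57, adjusted p 0.978). In late HF it was -2.23 for ABI3BP (SE 0.57, adjusted p 0.466) and -1.51 for FBLN2 (SE 0.46, adjusted p 0.534). Leaving out RA late 3 gave -1.60 (adjusted p 0.489) and -1.0 (adjusted p 0.556). The unlike courses of the genes in the 2 chambers are therefore descriptions.

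The probe sets of a gene did not always move together. FN1 had 2 other tested probe sets, which differed in RA early HF against control by 0.35 (adjusted p 0.32) and 0.76 (adjusted p 0.152), in RV late HF by -0.12 and 0.12, and between the control chambers by 0.02 and 0.43. The FN1 calls in RA early HF and between the control chambers thus rest on 1 probe set, the brightest. In RA against RV in early HF the dimmest of the 3 passed as well (6.32 in RA and 5.30 in RV, difference 1.03, adjusted p 0.0226), and the other differed by 0.51 (adjusted p 0.067). FBN1 was called in RA early HF by a second probe set (9.32 ± 0.61 in RA early HF against 7.53 ± 0.25 in RA control, SD, n = 3 each, difference 1.79, adjusted p 0.028), and another, dimmer one differed by 0.17. The other EFEMP2 probe set was higher in RA than in RV controls by 1.10 (adjusted p 0.00651). The other tested ABI3BP probe set, with group means between 5.33 and 5.66, differed there by 0.16 (adjusted p 0.519). Against RV control it differed by -0.16 in RV early HF (adjusted p 0.795), its arrays lower without overlap. In RV late HF it differed by -0.08 (adjusted p 0.836). The ABI3BP differences against RV controls thus rest on 1 probe set, the brightest. The other FBLN2 probe set differed between the control chambers by 0.31 (limma, adjusted p 0.17), its RA arrays higher without overlap. In early HF it differed between the chambers by 0.13 (adjusted p 0.624), with overlapping arrays. With all arrays, the FBLN2 calls between chambers thus rest on 1 probe set. The other tested FBLN5 probe set differed between the chambers in early HF by 0.56 (adjusted p 0.122), without overlap.

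FBLN1 had 5 tested probe sets, 4 of which were higher without overlap in RA than in RV controls, by 0.75 to 1.71. The remaining one, at 5.75 in RA and 5.78 in RV controls, differed by -0.03. Over the 13 tested probe sets that do not stand for a gene, 1 passed in RA early HF, 1 between control chambers and 6 between chambers in early HF. The 6 included FN1, FBN1, FBLN1 and EFEMP2 probe sets, and 0 passed in the other comparisons. Over all probe sets, 0.307%, 1.69% and 3.01% were called higher in the same order. Leaving out RA late 3 gave 1, 4 and 8, where 1.63%, 3.26% and 5.07% were called higher. That fit also gave 1 (EFEMP2) between chambers in late HF, where 2.19% were. The 8 include the second ELN probe set, which was lower in RA, as were 3.92% of probe sets.

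**Figure D4:**
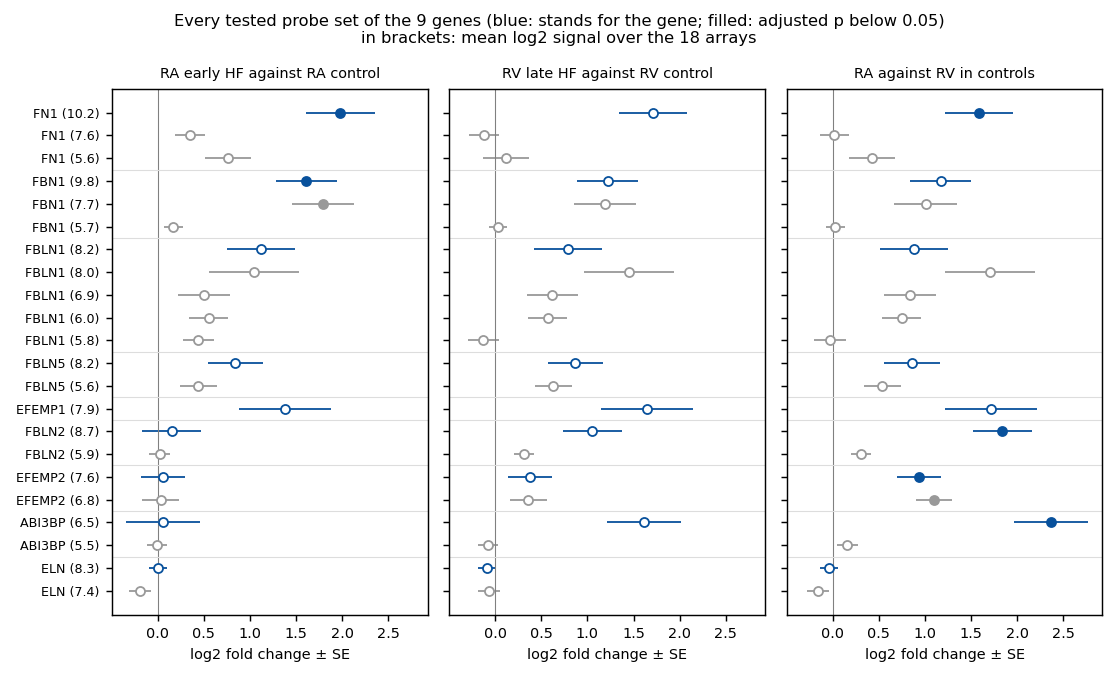
Log2 fold change (horizontal axis) with the standard error of the limma fit for all 22 tested probe sets of the 9 genes in RA early HF against control, RV late HF against control and RA against RV in controls. Blue marks the probe set that stands for the gene, grey the others, and filled points have an adjusted p below 0.05. For FN1 the brightest probe set lies apart from the other 2, whereas 4 of the 5 FBLN1 probe sets lie above 0 in every panel.

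Summed fibroblast and macrophage markers are given beside the 9 genes. In RV late HF both sums lay above RV control, as did the arrays of every gene but ELN. In RA early HF both sums lay above RA control, as did the arrays of FN1, FBN1, FBLN1, FBLN5 and EFEMP1. The arrays of FBLN2, EFEMP2, ABI3BP and ELN overlapped RA control there. The fibroblast markers include matrix genes (COL1A1, COL1A2, COL3A1 and POSTN). Over 16 fibroblast markers, the log2 of the summed signal was 14.73 to 15.46 in RA early HF and 14.24 to 14.33 in RA control, and 14.12 to 14.33 in RV late HF and 13.42 to 13.49 in RV control. In RV early HF it was 13.85 to 13.97, also above RV control. The arrays of FBLN2, FBLN5, EFEMP1, EFEMP2 and ABI3BP lay above RV control there, and those of FN1, FBN1, FBLN1 and ELN overlapped it. The fibroblast sum was 13.72 on RA late 3, the lowest RA array. Of the 14 tested, POSTN, a matricellular gene of activated fibroblasts, rose in RA early HF, where 0.307% of probe sets were called higher. It stood at 8.81 in early HF against 4.20, below the filter limit, in control (adjusted p 0.0325). Without RA late 3 there were 7 such markers, led by POSTN, LUM and COL1A2, where 1.63% of probe sets were called higher. In RA against RV controls SMOC2, GSN and DPT were higher, as were 1.69% of probe sets. In early HF 8 of the 14 were, SMOC2, DPT and COL3A1 first, as were 3.01% of probe sets. Macrophage markers summed to 11.16 to 11.95 in RA early HF and 10.70 to 10.79 in RA control. In the RV they summed to 10.89 to 11.16 in late HF and 10.58 to 10.75 in control. In RV early HF the macrophage sum was 10.54 to 11.01, overlapping RV control. Of the 10 tested, 4 were higher in RA than in RV in early HF, C1QA, CD14 and MRC1 first, where 3.01% of probe sets were. Their part in the differences of the 9 genes was not tested.

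Other cell types and RNA quality are given in the same way. Adipocyte markers summed to 12.37 to 13.18 in RA controls and 11.52 to 12.08 in RV controls, and to 12.11 to 12.98 in RV late HF, above the RV controls. SCD and RBP4 among these 10 markers were higher in RA than in RV controls, as were 1.69% of all probe sets. LPL was lower in RA than in RV in early HF, as were 2.64%. Atrial muscle markers summed to 13.53 to 13.60 in RV late HF and 12.61 to 12.88 in RV controls. Mesothelial markers stayed between 9.51 and 10.21 in all groups, and 6 of their 11, WT1 among them, lay below the signal filter. Smooth muscle markers summed to 12.09 to 12.51 in RA early HF and 11.89 to 12.15 in RA control, and endothelial markers to 11.91 to 12.21 in RA early HF and 11.64 to 11.79 in RA control. At most the 3 markers of smallest p are named per list and comparison. MYLK and RGS5 rose and SMTN fell in RA early HF, where 0.307% of all probe sets were called higher and 0.505% lower. In RA against RV, KCNJ8 was lower and NPR3 higher in controls and in early HF, and MYLK and TAGLN were higher in early HF. Over all probe sets, 1.69% were called higher and 1.21% lower in controls, and 3.01% and 2.64% in early HF. The difference between 3′ and 5′ control probe sets of GAPDH was 1.29 to 1.62 in RA early HF and 1.15 to 1.61 in RA control, and 1.28 to 1.47 in RV late HF and 1.05 to 1.25 in RV control, the RV arrays without overlap. That of EF1A was 8.51 to 8.86 in RV late HF and 8.01 to 8.28 in RV control, also without overlap. In RA controls it was 9.28 to 9.58, above the RV controls. In early HF it was 9.45 to 9.64 in the RA and 8.19 to 8.76 in the RV, again without overlap of the chambers. The part of these in the results was not tested.

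Genes that act with the 9 in fibre assembly were tested as lists. Over all probe sets, 0.307% were called higher and 0.505% lower in RA early HF by limma with all arrays. In RA against RV, 1.69% were called higher and 1.21% lower in controls, and 3.01% and 2.64% in early HF. Without RA late 3, those called higher were 1.63% in RA early HF, and 3.26% and 5.07% in RA against RV in controls and early HF. Of 7 tested genes of matrix cross-linking and procollagen trimming, TGM2 rose in RA early HF (10.20 in early HF against 9.10 in control, adjusted p 0.0395), and 0 fell. TGM2 is a transglutaminase that cross-links fibronectin. The median of the 7 was 0.32, against -0.02 over all probe sets. In RV early HF, TGM2 differed by 1.19 (adjusted p 0.0565), and by the same amount at 0.0369 without RA late 3. PCOLCE, which aids the trimming of procollagen, and LOXL3, a lysyl oxidase, were higher in RA than in RV in early HF, by 0.70 (adjusted p 0.0275) and 0.43 (adjusted p 0.0258). BMP1, a procollagen-trimming protease, passed there too without RA late 3 (0.54, adjusted p 0.0498), and in that fit PCOLCE rose in RA early HF (0.63, adjusted p 0.0381).

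Of 18 other microfibril and elastic fibre genes, 0 passed in RA early HF (median -0.03), where 0.307% of all probe sets were called higher and 0.505% lower. Among them MFAP5, a microfibril protein, differed there by 1.26 (adjusted p 0.173, and 0.0189 without RA late 3). MFAP5 was higher in RA than in RV in early HF by 2.04 (adjusted p 0.0125), as was HMCN1, a large fibulin relative, by 0.93 (adjusted p 0.0122). MFAP4, another microfibril protein, passed there too without RA late 3 (1.24, adjusted p 0.0207), though its arrays overlapped, and in that fit MFAP5 was higher in RA than in RV controls (1.22, adjusted p 0.0115). Of 18 fibronectin receptors and adhesion genes, SDC2, a syndecan that takes part in fibronectin assembly, rose in RA early HF by 1.03 (adjusted p 0.0327), and it was higher in RA than in RV in early HF by the same amount (adjusted p 0.0106). ITGB5, the integrin beta chain that pairs with ITGAV, was lower in RA than in RV, with differences of -0.81 in controls (adjusted p 0.025) and -0.79 in early HF (adjusted p 0.0194). When RA late 3 was left out, ITGAV was higher in RA than in RV controls (0.56, adjusted p 0.0203), and ITGB6, another partner of ITGAV, was lower in RA than in RV in early HF (-1.18, adjusted p 0.0181).

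Of 12 elastases and their inhibitors, 0 passed in RA early HF with all arrays, where 0.307% of all probe sets were called higher and 0.505% lower. Without RA late 3, where 1.63% of probe sets were called higher, 4 of the 12 passed. They were CTSS (2.12, adjusted p 0.00125), CTSK (1.40, adjusted p 0.0105), TIMP1 (1.37, adjusted p 0.0205) and TIMP2 (0.48, adjusted p 0.0217). CTSS and CTSK are elastin-degrading cathepsins, and TIMP1 and TIMP2 inhibit matrix metalloproteinases. With all arrays, CTSS stood at an adjusted p of 0.0509 and CTSK at 0.051. In RA against RV in early HF, CTSS (2.06, adjusted p 0.02) and TIMP1 (1.30, adjusted p 0.0372) were higher with all arrays. Without RA late 3, TIMP2 (0.50, adjusted p 0.00577) and MMP2, a gelatinase that also cleaves elastin (0.60, adjusted p 0.0219), passed there too, and MMP2 was higher in RA than in RV controls (0.68, adjusted p 0.0152). That fit also called CTSS (2.27, adjusted p 0.00659) and CTSK (1.24, adjusted p 0.0475) in RA late HF, CTSK in RV early HF (1.37, adjusted p 0.03), and CTSS (1.19, adjusted p 0.0412) and TIMP2 (0.46, adjusted p 0.0463) in RA against RV in late HF. In RV late HF against RV control, 0 genes of these 4 lists passed with all arrays, and 0.0% of all probe sets did. Without RA late 3 CTSS passed there (1.59, adjusted p 0.0267), where 0.0854% of probe sets were called higher.

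The genes whose signals ran most like each member were ranked by the lower of 2 Pearson correlations, over 8 RA arrays (without RA late 3) and over 9 RV arrays, among 10987 genes. The arrays of a chamber share its stage groups, so these values carry the differences between stages and are descriptions. FN1 was closest to FBN1 and COL1A1 (0.94 each) and THBS4 (0.93), and FBN1 to COL1A1 (0.95), FN1 (0.94) and COL1A2 (0.93). FBLN1 was closest to SERPING1 (0.94), MAOB (0.92) and IFI30 (0.92), FBLN5 to TAX1BP3 (0.95), P4HB (0.94) and SDC2 (0.94), and EFEMP1 to S100A6 (0.96), ANXA2 (0.93) and ANXA1 (0.93). The 3 genes that were level in the RA had lower values. FBLN2 was closest to TXNDC16 (0.82), SPTBN1 (0.80) and MUC5B (0.79), EFEMP2 to CD53 (0.81), ELOA (0.81) and CYBA (0.80), and ABI3BP to YY1 (0.75), EGFR (0.75) and LOC477309 (0.74). ELN, with almost no range to share, was closest to CHAC1 (0.88), PACC1 (0.84) and KLHL36 (0.83).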

How the data were processed

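The authors deposited 1 log2 signal per probe set and array of the Affymetrix Canine_2 array. The log2 scale was read from the values (2.43 to 14.49), and MAS5 is named, without a version, per the submitters' processing notes. The arrays have nearly the same distribution of values, no step between arrays is given in the sources used here, and none was added. Of 43035 probe sets, 111 controls were left out, and of the other 42924 the 40% of lowest mean signal, which left 25752 to test. Single symbols came from the platform annotation (29254 probe sets; 439 had several and 13231 none, and 27680 of the 29254 had a gene identifier found in RefSeq). The array was designed on an older build than the RefSeq table, so no coordinates are given.

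A model with 1 mean per group was fitted with limma 3.58.1 in R 4.3.3 over all 18 arrays (12 residual degrees of freedom), with a trended variance prior and two-sided tests. The Benjamini-Hochberg adjustment ran over all 25752 probe sets, with a threshold of 0.05. SE is that of the fit, and SD is over 3 arrays. The fit was tested on simulated data. Any 2 arrays differed in at least 97.5% of their values. Python 3.11.15, numpy 2.4.6, pandas 2.3.3 and matplotlib 3.10.9 were used for tables and figures. Members, lists and tests were chosen with earlier results of these data known. The text names all 9 members, the list genes past the threshold (at most the 4 of smallest p per pathway list and comparison, and 3 per marker list, markers other than muscle with all arrays), defining markers and the 3 genes most like each member. TGM2 and MFAP5 are also given where they did not pass, and CTSS and CTSK likewise, chosen after their values were seen.

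The replicate numbers were checked as marks of a shared dog by correlating deviations from the group means. RA and RV arrays of the same number correlated at 0.36, 0.24 and 0.42 in controls. The values were 0.17, 0.26 and 0.15 in early HF and 0.05, -0.42 and 0.15 in late HF. Pairs of different number were not computed, so these values have no baseline. They cannot tell whether same-numbered arrays share a dog. Within a chamber, same-numbered arrays of 2 stages correlated at 0.36, 0.14 and -0.03 between RA early and late HF and between -0.33 and 0.09 for the other pairs of stages, so no set of 3 was over 0.1 throughout and no stages were taken as paired. Alternatives were other filters, normalizations, priors, array weights, probe set choices, a replicate block, the groups compared alone, and each array left out.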

Additional observations from a re-analysis of the deposited data

How the results depend on the processing

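The results below are counts of the 9 genes past an adjusted p of 0.05. With 1 array left out in turn, RA early HF against control gave 0 to 5 (all arrays, 2), RA against RV controls 2 to 7 (all arrays, 4), RA against RV in early HF 2 to 8 (all arrays, 6), RA against RV in late HF 0 to 2, RA late against early HF 0 to 2 and RV late HF against control 0 to 2 (0 each with all arrays). RA late HF and RV early HF against control, RV late against early HF and both chamber differences in the HF effect gave 0 throughout. Over the same fits, 0.0311% to 1.95% of all probe sets were called higher in RA early HF, 0.586% to 3.26% in RA against RV controls and 0.796% to 5.07% in RA against RV in early HF. Where a group lost an array, its spread was taken from the other groups as well.

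With only the groups compared, the counts were 7 in RV late HF against control, 8 in RA against RV controls, 8 in RA against RV in early HF and 3 in RA early HF, where 0.804%, 5.06%, 3.59% and 1.59% of all probe sets were called higher. With array weights they were 6, 8, 8 and 3 in the same comparisons (0.602%, 5.87%, 4.75% and 1.7% of probe sets), and 1 in RA late HF against control (5.19%), 2 in RA late against early HF (3.11% called lower) and 3 in RA against RV in late HF (9.95%); the weights did not fully converge for some fits. Quantile normalization gave 6 in RA against RV controls (2.2%), no signal filter gave 3 there (0.997%), and an untrended prior changed no count (1.71% there). Counting any probe set gave 7 in RA against RV in early HF (3.01%), where genes with more probe sets had more chances to pass. Leaving out probe sets marked as shared between transcripts gave 5 in that comparison (3.17%), since EFEMP1 then had no value. The cause of the other shifts was not tested.

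With the replicate block, RA against RV controls gave 5 genes (2.1% of probe sets), FBN1 being gained, and every other count of the 9 was as without it. Under it, 0.695% of probe sets were called higher in RA early HF and 0.249% in RV early HF. For chamber comparisons the block was stage with replicate number, and for stage comparisons it was replicate number alone. Both join arrays not shown to share a dog, late HF among them, so the unchanged counts say nothing about pairing. Of 2563 single-gene values under these alternatives, 2393 kept their sign and their side of the threshold, 58 came to pass it and 53 ceased to. A further 59 that were not called changed sign, and no called value did. With the untrended prior, or without an array outside the groups compared, the difference itself could not change. With all arrays, calls came only in RA early HF (2), RA against RV controls (4) and RA against RV in early HF (6). The 53 losses all fall on these calls, and most of the 2393 were uncalled in both fits.

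At 3 arrays a group, a gene that misses the threshold is not shown to be unchanged. Without RA late 3, RA late HF has 2 arrays.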
